A study of Homo sapiens with 12 samples.

Results

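MLT2 elements are the long terminal repeats of old ERVL retroviruses, whose internal parts are called HERVL and ERVL. They were followed here in RNA pulled down with V5-tagged ZC3H18 (Z18) from A375 cells, an established human melanoma line. The members were all annotated repeat elements whose subfamily name starts with MLT2 and that had counts on the strand of the element. There were 9139 such loci, of 1509971 elements of the LTR, LINE, SINE, DNA, RC and Retroposon classes (6 classes) with counts on their own strand in any of the 12 libraries. The choice used the name and the strand and no comparison between groups. They fell into 12 subfamilies, MLT2A1, MLT2A2, MLT2B1 to MLT2B5, MLT2C1, MLT2C2, MLT2D, MLT2E and MLT2F.

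RNA was collected by PAR-CLIP. Cells take up the photoactivatable nucleoside 4sU, ultraviolet light links proteins to the RNA they touch, and an antibody to the tag recovers the protein together with that RNA. A375 cells were transfected transiently with 1 of 4 V5-tagged constructs in a pcDNA3.2 vector, and 4sU labelling began 24 h later. Clover, a fluorescent protein, served as control. The others were ZC3H18 at full length (Z18fl), a truncated form (Z18trunc), and the truncated form with some aromatic residues of its zinc finger mutated (Z18truncZnFmut). Every construct had 3 ribo-depleted, stranded libraries. All 4 groups shared the line, the tag, the labelling and the antibody, and in each of them the tagged protein was expressed on top of the ZC3H18 the cells make themselves. The labels do not say whether the 3 libraries of a construct came from separate cultures, so p-values measure the spread between these libraries, which may be technical. The tables hold repeat elements and no genes, so neither melanoma markers nor the level of ZC3H18 could be checked against the labels. More RNA bound per molecule and more of that RNA in the cell could not be told apart in a pulldown without matched input.

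A retrovirus carries the same long terminal repeat at both ends. The repeat holds the promoter that starts the viral RNA and the signal, often AATAAA, at which that RNA is cut and polyadenylated. Intact repeats begin with TG and end with CA. Most MLT2 copies are solitary, because recombination between the repeats of one provirus removes the internal part. MLT2A1 and MLT2A2 belong to the youngest HERVL proviruses and the other subfamilies are older. ZC3H18 is a zinc finger protein that links capped RNA to the nuclear exosome through the NEXT and PAXT complexes.

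The sequences of 2 MLT2 loci that were called lower against Clover are given first, read from hg38 in the direction of the element and in lower case throughout, because neither window held AATAAA, searched in the sense direction only. The MLT2B3 copy at chr17:18269915-18270473, minus strand, lies between genes, 954 bases past the 3′ end of TOP3A, a topoisomerase gene on the same strand. It is shown because it was called lower against Clover with all 3 ZC3H18 constructs. Its first 300 bases are at chr17:18270174-18270473.
MLT2B3 downstream of TOP3A, first 300 bases: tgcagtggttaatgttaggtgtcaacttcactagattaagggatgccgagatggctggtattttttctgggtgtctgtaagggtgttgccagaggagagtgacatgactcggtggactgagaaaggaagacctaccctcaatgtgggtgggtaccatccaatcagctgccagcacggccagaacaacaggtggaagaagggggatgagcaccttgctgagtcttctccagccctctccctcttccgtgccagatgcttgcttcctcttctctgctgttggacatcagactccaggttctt
The MLT2B4 copy at chr20:62648977-62649466, minus strand, lies wholly within exon sequence of the long noncoding RNA gene SLCO4A1-AS2. It is shown because it had the largest fitted fall, on few counts. Its first 300 bases are at chr20:62649167-62649466, and its last 100 bases held no match either.
MLT2B4 in SLCO4A1-AS2, first 300 bases: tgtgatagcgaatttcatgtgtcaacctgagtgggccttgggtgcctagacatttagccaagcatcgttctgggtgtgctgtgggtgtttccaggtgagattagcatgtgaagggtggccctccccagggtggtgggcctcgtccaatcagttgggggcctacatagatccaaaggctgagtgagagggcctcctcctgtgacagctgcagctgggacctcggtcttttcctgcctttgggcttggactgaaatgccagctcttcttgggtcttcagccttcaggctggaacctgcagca

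Both printed windows begin with TG. Among the 7408 MLT2 loci with counts that were 300 bases or longer, 68.9% began with TG, 39.2% ended with CA and 28.7% did both. AATAAA stood in the first 300 bases of 21.4% of them and of 17.2% of the 169305 other LTR elements with counts of that length. For 45134 elements of the related MLT1 group the share was 17.0%. In the last 100 bases, a window chosen after the values were seen, the shares were 45.8% for MLT2, 30.7% for MLT1 and 20.2% for the other LTR elements. Among the MLT2 subfamilies examined they ran from 28.8% of 900 MLT2B4 copies and 50.9% of 915 MLT2B3 copies to 68.7% of 901 MLT2A1 copies and 72.7% of 1255 MLT2A2 copies. A match is a description of letters and not a mapped polyadenylation site.

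MLT2 loci with counts had a median length of 429 bases, a median divergence from their consensus of 18.9%, an AT content of 55.8% and a T content of 30.3%. Elements of the related MLT1 group had the same kind of AT content, 56.2%, but a T content of 26.7%, read on the strand of the element in each case. T is the base that 4sU replaces during transcription. Divergence was lowest in MLT2A1, with a median of 8.6%, was 15.1% in MLT2A2, and was between 17.5% and 28.6% in the other subfamilies. Of the 9139 loci, 4695 (51.4%) lay between genes, 2203 (24.1%) antisense to a gene, 2055 (22.5%) in an intron on the strand of the gene, and 186 (2.04%) in exon sequence. There were 1007 loci (11.02%) within 500 bases of a listed ERVL internal part on the same strand.

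Libraries had between 16683132 and 25686948 aligned fragments, and between 660648 and 1414945 counts on the strand of the elements in all of them except Z18truncZnFmut replicate 3. That library stood apart. It had 2183589 such counts, 5813 MLT2 loci with counts where the other 11 libraries had 671 to 1847, and 4065 MLT2 loci that no other library listed, which held 57.8% of its MLT2 counts. Of those 4065 loci, 84.2% lay between genes or antisense to a gene. Most results that include Z18truncZnFmut are therefore given with and without this library, or library by library. Those from DESeq2 and from scaling by aligned fragments include it. Z18trunc replicate 3 came next, with 677 MLT2 loci listed in no other library and 21.6% of its MLT2 counts in them, beside 115 to 243 such loci in the other 10 libraries. Clover libraries were the shallowest of all by aligned fragments.

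MLT2 made up a small share of repeat RNA in every library. The MLT2 counts were 2096, 1880 and 1831 in Clover, 3120, 3016 and 3475 in Z18fl, 3006, 3412 and 4073 with Z18trunc, and 3179, 2992 and 10148 with Z18truncZnFmut. Of the MLT2 loci with counts in a library, 48.0% to 63.4% had a count that rounded to 1 or less. The highest single MLT2 locus had 63 to 133 counts, so depth limits any statement on single loci. The 10 MLT2 loci with most counts in a library held 15.5% to 17.4% of its MLT2 counts in Clover and 10.2% to 14.5% in the ZC3H18 libraries other than Z18truncZnFmut replicate 3, where they held 3.60%.

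Relative to aligned fragments, MLT2 RNA was higher in every ZC3H18 library than in every Clover library. In CPM, counts per 1000000 aligned fragments, MLT2 stood at 126, 109.9 and 104 in Clover and at 135, 131 and 135 in Z18fl. It stood at 126, 141 and 172 with Z18trunc and at 132, 141 and 419 with Z18truncZnFmut. The lowest Z18trunc library (126.4) lay just above the highest Clover library (125.6), so the groups were separated by less than their own spread there. The mean difference from Clover was 20.8 CPM for Z18fl, 33.4 for Z18trunc and 117 for Z18truncZnFmut, which fell to 23.0 CPM without replicate 3. Without Z18trunc replicate 3 the Z18trunc difference was 20.7 CPM. With 3 libraries against 3, the two-sided exact permutation test cannot go below p = 0.1, the value it gave each time (0.286 after Benjamini-Hochberg adjustment over 60 such tests). With uniquely mapping reads alone Z18trunc and Z18truncZnFmut each overlapped with Clover (exact permutation p = 0.2). Z18trunc and Z18fl overlapped (exact permutation p = 0.5, with a difference of 12.7 CPM, or -0.11 CPM without Z18trunc replicate 3), as did Z18truncZnFmut and Z18trunc (p = 0.7, with a difference of 83.9 CPM, or -10.5 CPM without Z18truncZnFmut replicate 3).

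Other repeat RNA was also higher in those libraries, and as a share of all 6 classes MLT2 was lower in Z18fl than in Clover. MLT1, an older group of long terminal repeats of the related MaLR elements, stood at 1049 ± 73.3 CPM (SD, n = 3) in Clover and at 1414 ± 27.3 in Z18fl. MLT2 held 0.300%, 0.285% and 0.272% of the counts of all 6 classes in Clover, 0.260%, 0.266% and 0.246% in Z18fl, 0.228%, 0.248% and 0.296% with Z18trunc, and 0.247%, 0.273% and 0.465% with Z18truncZnFmut. All Z18fl libraries lay below all Clover libraries (difference of means -0.0281 percentage points, exact permutation p = 0.1, adjusted 0.286), while Z18trunc and Z18truncZnFmut overlapped with Clover. With reads on either strand the difference of Z18fl was -0.00803 points and the groups overlapped (exact permutation p = 0.6), as they did with uniquely mapping reads alone (p = 0.2). Against LTR elements alone the MLT2 share was 1.81%, 1.73% and 1.56% in Clover. Its mean was 1.79% ± 0.0405 (SD, n = 3) in Z18fl, 1.88% ± 0.201 with Z18trunc and 2.05% ± 0.544 with Z18truncZnFmut (1.74% without replicate 3), and the groups overlapped.

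**Figure D1:**
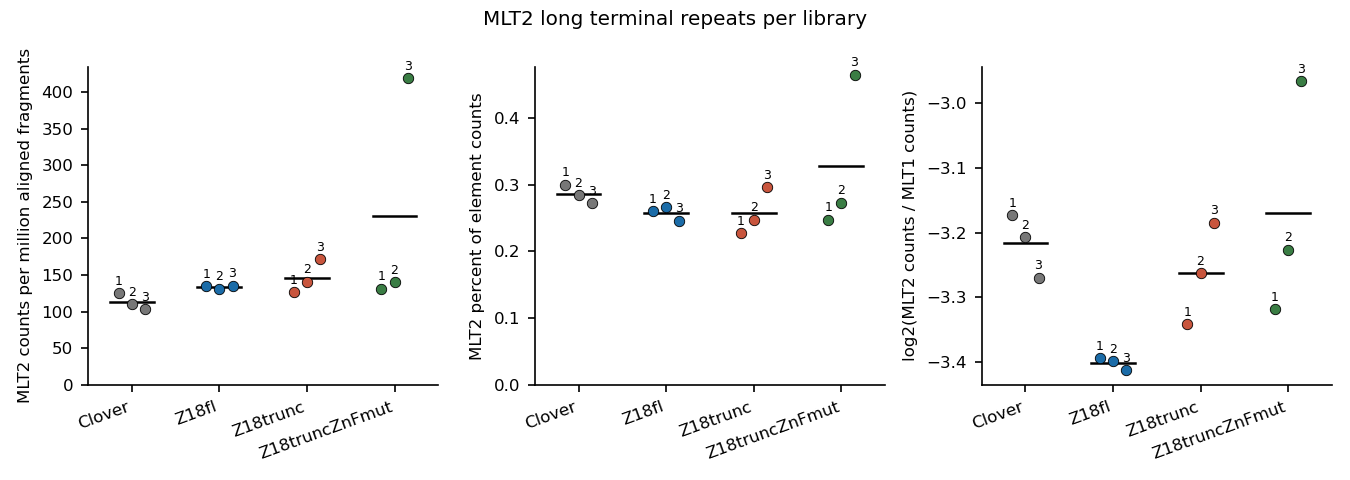
MLT2 CPM (left), MLT2 as a percent of the counts of the 6 element classes (middle) and log2 of MLT2 over MLT1 counts (right). Each point is a library with its replicate number, and each bar the mean of 3 libraries. Z18truncZnFmut replicate 3 stands above all others in each panel, at 419 CPM, 0.465% and -2.97.

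MLT1 served as the closest comparison. The log2 ratio of MLT2 to MLT1 counts was -3.17, -3.21 and -3.27 in Clover and -3.39, -3.40 and -3.41 in Z18fl, where all libraries lay lower. It was -3.34, -3.26 and -3.18 with Z18trunc and -3.32, -3.23 and -2.97 with Z18truncZnFmut. The Z18fl mean differed from Clover by -0.19 on the log2 scale, and Z18trunc was above Z18fl by 0.14, neither with overlap (exact permutation p = 0.1 for both, adjusted 0.286). Against the other ERVL elements the difference of Z18fl from Clover was -0.11 and that of Z18trunc from Z18fl 0.13, again with no overlap and an exact permutation p = 0.1. With reads on either strand counted, the difference of Z18fl from Clover shrank to -0.03 against MLT1 and turned to 0.02 against other ERVL, and both overlapped (exact permutation p = 0.2 and 0.4). With uniquely mapping reads alone the latter was -0.05 and overlapped too (exact permutation p = 0.4). ERVL internal parts, the bodies of the proviruses, stood at 299.9 ± 22.4 CPM (SD, n = 3) in Clover, 439.7 ± 9.79 in Z18fl, 405.7 ± 32.4 with Z18trunc and 517 ± 275 with Z18truncZnFmut (358.2 without replicate 3).

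MLT2 loci within 500 bases of such an internal part had 12.8 ± 2.16 CPM in Clover, 17.9 ± 0.572 in Z18fl, 18.2 ± 4.09 with Z18trunc and 27.95 ± 17.6 with Z18truncZnFmut (17.9 without replicate 3; SD, n = 3). They took between 9.92% and 15.5% of MLT2 counts in the single libraries. The other loci had 100.3 ± 9.93 CPM in Clover and 116 ± 2.46 CPM in Z18fl. The groups were not tested against each other.

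In Z18fl the higher MLT2 CPM lay mostly in introns. MLT2 copies in introns on the strand of the gene stood at 41.7, 36.0 and 35.6 CPM in Clover and at 54.7, 52.8 and 55.4 CPM in Z18fl. They stood at 50.2, 55.8 and 61.5 CPM with Z18trunc and at 48.9, 53.7 and 99.8 CPM with Z18truncZnFmut, so every ZC3H18 library lay above every Clover library. MLT2 copies between genes stood at 44.9, 41.0 and 37.99 CPM in Clover, at 41.4, 42.0 and 42.4 in Z18fl, at 40.6, 46.2 and 62.1 with Z18trunc and at 45.7, 47.4 and 204 with Z18truncZnFmut. Here Z18fl lay within the range of Clover. Reads from an MLT2 copy inside an intron cannot be told apart from reads of the gene's own unspliced RNA.

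As a share of MLT2 counts, introns held 33.4% ± 0.812 in Clover, 40.6% ± 0.373 in Z18fl and 38.3% ± 2.25 in Z18trunc (SD, n = 3). The differences from Clover were 7.18 and 4.93 percentage points, with no overlap (exact permutation p = 0.1, adjusted 0.286). With reads on either strand they were 1.97 and 2.03 points, still without overlap. In Z18truncZnFmut the share was 33.1% ± 8.02, and 37.7% without replicate 3, whose own share was 23.8%, so that its difference from Clover turned from -0.347 to 4.27 points. The share of all element counts in introns moved the same way, from 41.5% ± 0.515 in Clover to 53.1% ± 0.714 in Z18fl and 50.6% ± 1.24 in Z18trunc, so introns gained share in repeat RNA at large. Exon sequence held 16.8% ± 1.64 of MLT2 counts in Clover and 17.7% ± 0.828 in Z18fl, while its share of all element counts was 26.4% ± 0.997 in Clover and 17.9% ± 0.744 in Z18fl.

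**Figure D2:**
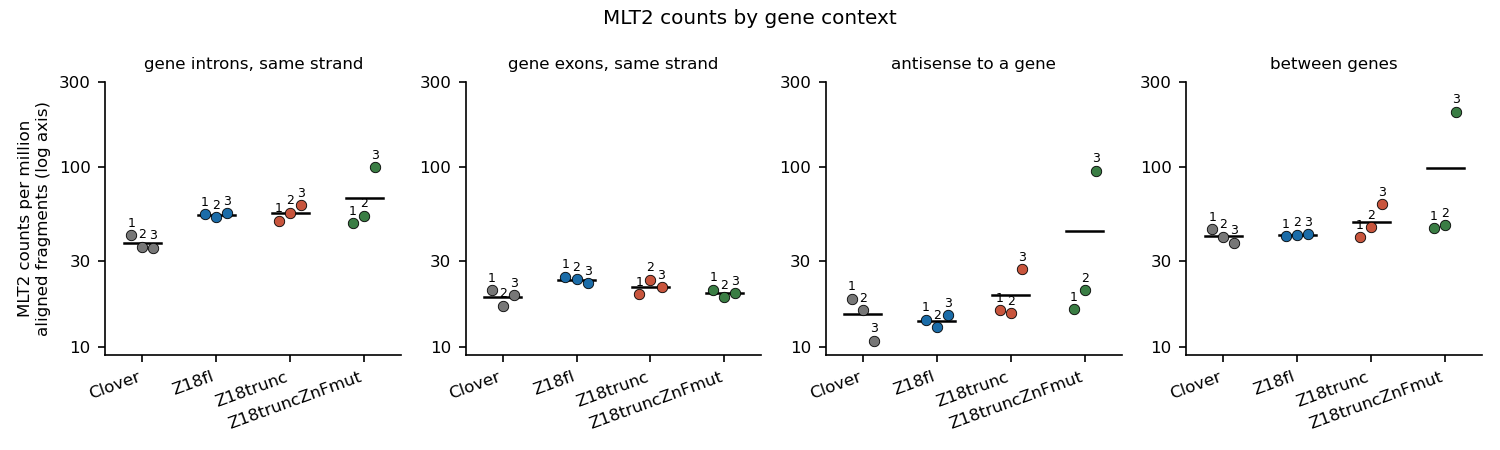
MLT2 CPM on a log axis, split by gene context in GENCODE 44. Each point is a library with its replicate number, and each bar the mean of 3 libraries. In introns all ZC3H18 libraries lie above the Clover libraries, and Z18truncZnFmut replicate 3 stands apart antisense to genes (95.6 CPM) and between genes (204 CPM).

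Subfamily sums showed which MLT2 groups lagged behind repeat RNA in general. They were tested with edgeR's quasi-likelihood test on counts scaled by TMM, which sets the bulk of all 915 to 957 subfamilies near 0, with Benjamini-Hochberg adjustment over all of them. Scaling by aligned fragments instead moved the median of all subfamilies from -0.01 to 0.45 (log2) in Z18fl, from -0.02 to 0.48 with Z18trunc and from 0.03 to 1.04 with Z18truncZnFmut against Clover. All directions below are therefore relative to the bulk of repeat RNA. The Z18truncZnFmut value includes replicate 3 and is not given without it. That library had 2183589 element counts, beside 1286490 and 1096500 in the other Z18truncZnFmut libraries. The comparisons with Clover share its 3 libraries and are not independent of each other. MLT2A2 held 16.5% to 20.4% of the MLT2 counts of a library and MLT2A1 10.1% to 13.5%, beside 14.7% and 10.95% of the loci.

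In Z18fl against Clover, 5 of the 12 MLT2 subfamilies were lower and 0 were higher, where 20.1% of all 915 subfamilies were lower and 20.1% were higher. At an unadjusted p under 0.05, 6 of the 12 passed, beside 424 of all 915. DESeq2 called 3 lower and 0 higher, beside 17.4% lower and 16.8% higher of all 915. Without Clover replicate 1 edgeR called 2 lower, and without Z18fl replicate 1 or replicate 3 it called 3. The share of all subfamilies called is not given for the fits with a library left out. The median log2 fold change was -0.13 over MLT2 and -0.01 over all subfamilies. It was -0.17 over 95 other ERVL subfamilies, of which 4.21% were higher and 23.2% lower. Over all 500 LTR subfamilies it was -0.12, with 9.6% higher and 23.4% lower. MLT2B4 fell most, from 302, 300 and 296 counts in Clover to 354, 336 and 365 in Z18fl, which in CPM is 17.5 ± 0.672 against 14.7 ± 0.535 (SD, n = 3). It alone of the 12 had a CPM that was also lower in every Z18fl library than in every Clover library. Its log2 fold change was -0.72 ± 0.09 (SE, edgeR adjusted p = 6.39e-06), and -0.25 under scaling by aligned fragments. With reads on either strand counted, in place of those on the strand of the element, it was -0.12 and did not pass (adjusted p = 0.154).

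MLT2B1 fell by 0.43 ± 0.12 on the log2 scale (SE, edgeR adjusted p = 0.00792), MLT2B2 by 0.35 ± 0.13 (adjusted p = 0.0464, and 0.107 without its locus of most counts), MLT2B3 by 0.30 ± 0.09 (adjusted p = 0.0115) and MLT2A2 by 0.22 ± 0.08 (adjusted p = 0.0442). These 4 calls depended on the processing. Of 15 alternative settings, the call was lost in 12 for MLT2A2, in 11 for MLT2B2, and in 4 each for MLT2B1 and MLT2B3, beside 1 for MLT2B4. With reads on either strand none of the 5 calls was kept (adjusted p from 0.0534 to 0.527). Under scaling by aligned fragments these 4 had positive values, between 0.04 and 0.25, below the median of all subfamilies there (0.45). The youngest subfamily, MLT2A1, was at -0.01 ± 0.09 (adjusted p = 0.930), from 220, 206 and 205 counts in Clover to 385, 386 and 441 in Z18fl. MLT2D and MLT2F had values above 0, at 0.20 ± 0.09 (adjusted p = 0.1) and 0.14 ± 0.13 (adjusted p = 0.449). MLT2D stood at 169, 156 and 168 counts in Clover and at 353, 348 and 394 in Z18fl, and in CPM at 9.58 ± 0.528 against 15.3 ± 0.0696. It passed the test without its locus of most counts (log2 fold change 0.29, adjusted p = 0.0209) and under scaling by aligned fragments (0.67, adjusted p = 6.36e-05), but with reads on either strand it turned and passed as lower (-0.22, adjusted p = 0.0082). MLT2C1, MLT2C2 and the sparse MLT2B5 and MLT2E did not pass, with values from -0.31 to -0.01.

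In Z18trunc against Clover, MLT2B4 was the 1 subfamily of 12 called lower, beside 11.9% of all 925, and 0 were higher, beside 14.5%. At an unadjusted p under 0.05, 2 of the 12 passed, beside 308 of all 925. DESeq2, which gave an adjusted p to 11 of the 12, also called 1 lower and 0 higher. Of all 871 with an adjusted p, it called 11.6% lower and 14.7% higher. MLT2B4 had 372, 466 and 495 counts in Z18trunc, a log2 fold change of -0.41 ± 0.10 (SE, edgeR adjusted p = 0.00641). The call was lost without its locus of most counts, the copy antisense to THSD4 (-0.22, adjusted p = 0.163), without Clover replicate 3 (-0.37, adjusted p = 0.0502) and with reads on either strand (-0.04, adjusted p = 0.807), and the value was 0.09 under scaling by aligned fragments. MLT2B3, at -0.29 ± 0.10, had an adjusted p of 0.0532. MLT2D (0.16 ± 0.11), MLT2A1 (0.10 ± 0.11) and MLT2F (0.09 ± 0.17) again had the highest values, and none of them passed the test.

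In Z18truncZnFmut against Clover, 0 of 12 MLT2 subfamilies were called in either direction by edgeR, beside 1.3% of all 921 higher and 0.0% lower. None of the 12 had an unadjusted p under 0.05, beside 171 of all 921. DESeq2 called 0 of the 9 to which it gave an adjusted p, beside 9.47% higher and 5.3% lower of all 528. MLT2B4 stood at 473, 460 and 1331 counts, a log2 fold change of -0.13 ± 0.13 (adjusted p = 0.609), or -0.10 without replicate 3 (adjusted p = 0.712). Without replicate 3 edgeR still called 0 of 12, beside 98 of 893 subfamilies higher and 51 lower. At an unadjusted p under 0.05 there was then 1 of the 12, beside 224 of all 893.

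The ZC3H18 constructs were also compared with each other. In Z18trunc against Z18fl, 0 of 12 MLT2 subfamilies were called, beside 1.48% of 948 higher and 2.43% lower. DESeq2 called 0 of 9 with an adjusted p, beside 8.19% higher and 4.42% lower of all 452. At an unadjusted edgeR p under 0.05 there were 2, beside 181 of all 948. Those 2 were MLT2B1 (log2 fold change 0.32 ± 0.10, edgeR adjusted p = 0.101) and MLT2B4 (0.28 ± 0.09, adjusted p = 0.107). In Z18truncZnFmut against Z18trunc, 0 were called, beside 0.0% of 957 in each direction, and DESeq2 gave the same counts. At an unadjusted edgeR p under 0.05 there was 1, beside 48 of all 957. That 1 was MLT2B4, at 0.32 ± 0.13 (adjusted p = 0.822), and at 0.30 without Z18truncZnFmut replicate 3 (adjusted p = 0.416). A p that misses the threshold does not show that the constructs act alike.

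**Figure D3:**
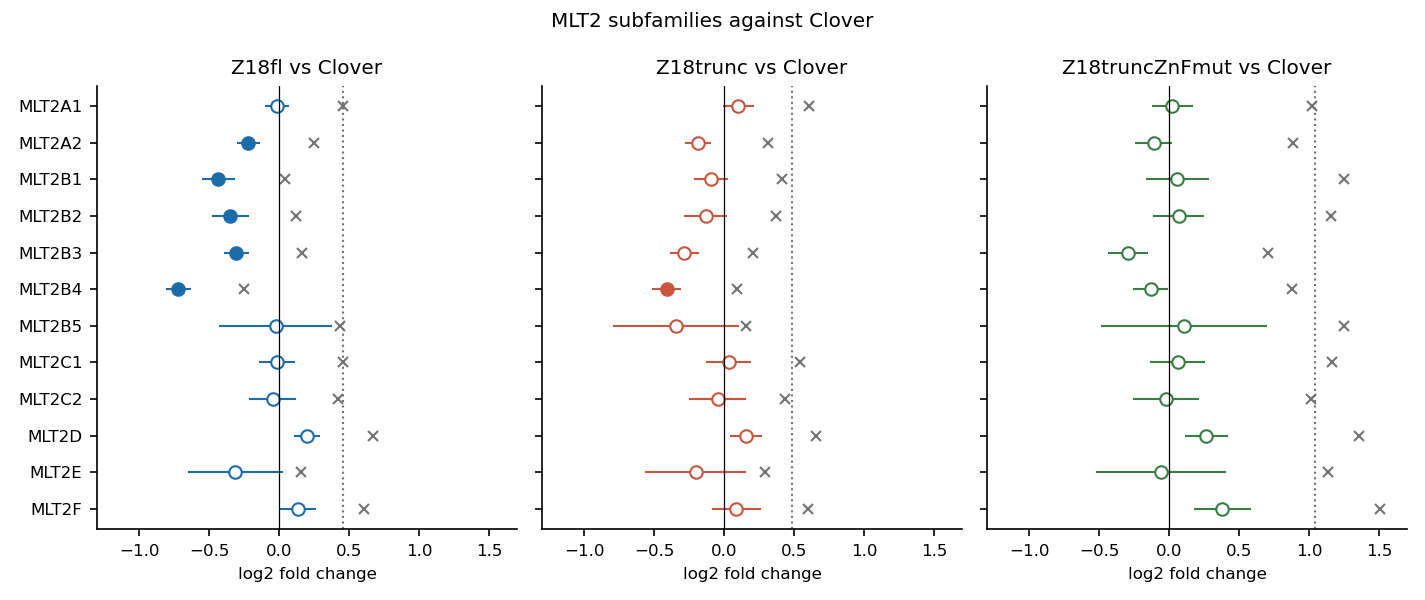
Log2 fold change of the 12 MLT2 subfamilies against Clover for Z18fl, Z18trunc and Z18truncZnFmut. Circles with bars give the edgeR estimate and its SE after TMM scaling, filled where the adjusted p was under 0.05. Crosses give the value scaled by aligned fragments, and the dotted line the median of all subfamilies on that scale. The Z18truncZnFmut panel includes replicate 3. MLT2B4 lies lowest in Z18fl and Z18trunc (-0.72 and -0.41).

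Single loci could be tested only where they had enough counts. Of the 9139 MLT2 loci, 62 passed the filter in at least 1 comparison and 17 in all 5. A locus that passed only through the group where it was high had to differ, so the counts below describe those that passed and not MLT2 as a whole. Against Clover, 2 of 25 loci passed through 1 group alone for Z18fl, 6 of 31 for Z18trunc and 3 of 24 for Z18truncZnFmut. In Z18fl against Clover, 25 loci passed. Of these, 0 were higher, beside 28.3% of all 12098 loci tested, and 3 were lower, beside 24.6%. DESeq2 also called 0 higher and 3 lower, beside 24.0% higher and 17.1% lower of all 12098. An unadjusted edgeR p under 0.05 was found at 4 of the 25, beside 7110 of all 12098. The median log2 fold change was -0.41 over the 25 and 0.01 over all loci, with 21 of the 25 below 0. It was -0.20 over MLT1, -0.15 over other ERVL and -0.14 over all LTR loci. Of these, 17.2%, 19.0% and 22.7% were called higher and 23.6%, 26.7% and 27.3% lower. Of the 25, 7 lay in introns. Their median was -0.54 with 0 higher, beside 0.64 and 41.8% higher over all 5324 intronic loci tested. Among the 7, the MLT2A1 copy at chr1:94166773-94167221 passed the filter through Clover alone. The 7 do not stand for all intronic MLT2 RNA. Relative to aligned fragments that stood at 37.7 ± 3.40 CPM in Clover and 54.3 ± 1.33 in Z18fl (SD, n = 3). Without Clover replicate 1, 2 or 3 the number of lower MLT2 loci was 5, 5 and 6. The share of all loci called in those fits is not given, so these counts show only how far the MLT2 calls moved.

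In Z18trunc against Clover, 31 loci passed, with 1 higher, beside 22.5% of all 13204, and 5 lower, beside 13.4%. DESeq2 called 1 higher and 3 lower, beside 19.5% higher and 7.66% lower of all 13204. Leaving out any library other than Clover replicate 3 gave 2 lower loci, or 3 for Clover replicate 2. The share of all loci called is not given for those fits either. The median log2 fold changes were -0.30 over MLT2 and -0.03 over all loci. Related elements had medians like that of MLT2, at -0.32 over MLT1, -0.32 over other ERVL and -0.25 over all LTR loci. Of these, 7.12%, 4.9% and 8.81% were called higher and 16.9%, 21.6% and 18.8% lower. In Z18truncZnFmut against Clover, 24 loci passed, with 0 higher, beside 12.3% of 10152, and 1 lower, beside 4.83%. Related loci also had few higher calls, at 1.74% of MLT1, 3.06% of other ERVL and 4.14% of all LTR loci. Their shares called lower were 4.86%, 7.65% and 4.58%. DESeq2 gave the same MLT2 counts there, beside 10.5% higher and 3.15% lower of all 10151. An unadjusted edgeR p under 0.05 was found at 1 of the 24, beside 2909 of all 10152. Without replicate 3 the counts were 1 higher and 0 lower of 24, beside 10.4% and 2.79% of all 9894. Between constructs 0 MLT2 loci were called. In Z18trunc against Z18fl, 55 loci passed the filter and 0 were called, beside 2.62% of 19413 called higher and 3.13% lower. Of the 55, 5 had an unadjusted p under 0.05, beside 4426 of all 19413. In Z18truncZnFmut against Z18trunc, 41 passed the filter and 0 were called, beside 0.368% of 16833 called higher and 0.351% lower. Of the 41, 3 had an unadjusted p under 0.05, beside 2417 of all 16833. DESeq2 called 0 in both, of only 9 and 7 MLT2 loci to which it gave an adjusted p. Over all loci it called 4.02% of 7745 higher and 3.77% lower in the former. In the latter it called 2.12% of 4105 higher and 1.97% lower. Without Z18truncZnFmut replicate 3 edgeR called 0 of 63 in the latter comparison, beside 0.169% higher and 0.26% lower of 21933. Of the 63, 7 had an unadjusted p under 0.05, beside 2986 of all 21933.

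**Figure D4:**
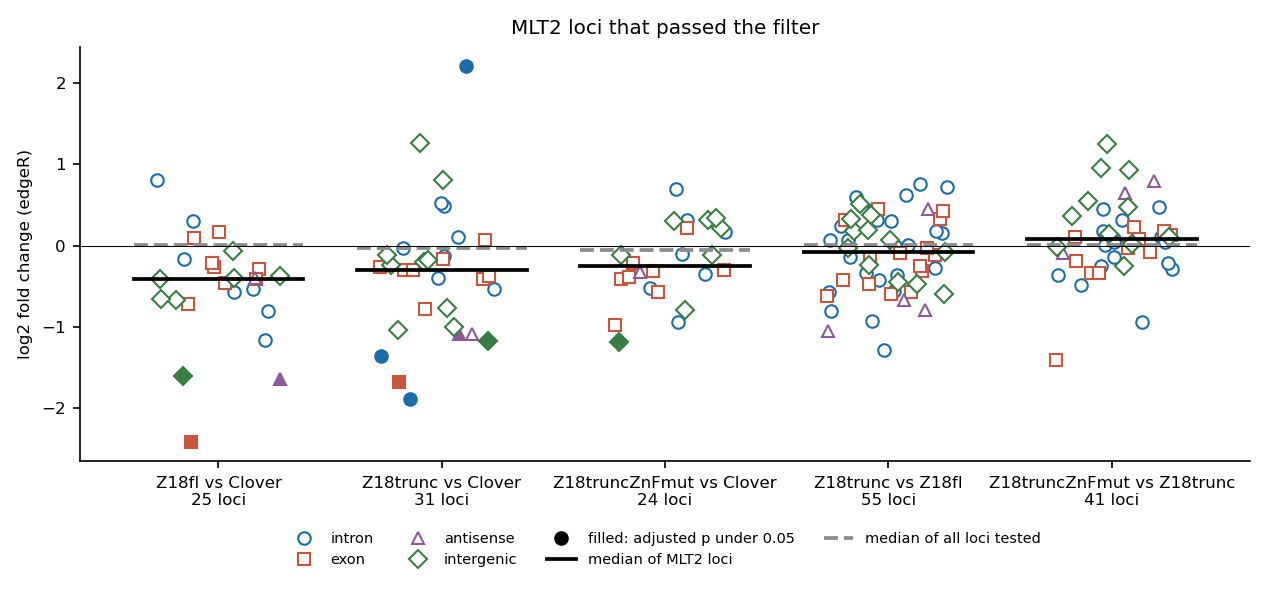
Log2 fold change (edgeR, TMM scaling) of each MLT2 locus that passed the filter in each of the 5 comparisons, by gene context. Filled symbols had an adjusted p under 0.05. Solid bars mark the median of the MLT2 loci and dashed bars that of all loci tested. In the first 3 comparisons the MLT2 median lies below that of all loci (-0.41 against 0.01 in Z18fl against Clover). The medians of MLT1 and other ERVL loci, which are not drawn, also lie below it there.

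An MLT2B4 copy antisense to THSD4, which encodes a thrombospondin-repeat protein of the extracellular matrix, had 69, 69 and 51 counts in Clover and 33, 32 and 44 in Z18fl. It had 43, 64 and 50 counts with Z18trunc and 79, 80 and 74 with Z18truncZnFmut, libraries with more aligned fragments than those of Clover. In CPM it stood at 3.69 ± 0.694 in Clover, 1.52 ± 0.169 in Z18fl, 2.18 ± 0.432 with Z18trunc and 3.36 ± 0.360 with Z18truncZnFmut (SD, n = 3). All Z18fl and all Z18trunc libraries lay below all Clover libraries, and those of Z18truncZnFmut lay within the Clover range.

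On the log2 scale it fell by 1.64 ± 0.22 in Z18fl (SE, edgeR adjusted p = 1.29e-05) and by 1.09 ± 0.22 in Z18trunc (adjusted p = 0.000773, but 0.352 with no filter on low counts). In Z18truncZnFmut the log2 fold change was -0.33 ± 0.22 (adjusted p = 0.347), and -0.28 without replicate 3 (adjusted p = 0.534). Z18truncZnFmut against Z18trunc gave 0.79 ± 0.22 (adjusted p = 0.0983, and 0.129 without replicate 3), so the difference between these 2 constructs did not pass. Of its counts, 81.0% came from uniquely mapping reads. It held 17.2% to 23.0% of MLT2B4 counts in Clover, 9.32% to 12.04% in Z18fl and 10.1% to 13.7% in Z18trunc.

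The MLT2B3 copy past the 3′ end of TOP3A had 44, 56 and 33 counts in Clover, 27, 29 and 22 in Z18fl, 27, 52 and 26 with Z18trunc, and 24, 44 and 21 with Z18truncZnFmut. All Z18fl libraries lay below all Clover libraries in CPM (0.856 to 1.26 against 1.87 to 3.27), while the second library of Z18trunc and of Z18truncZnFmut lay within the Clover range. The locus was called lower with each construct. On the log2 scale it fell by 1.60 ± 0.29 in Z18fl (SE, edgeR adjusted p = 0.000169), by 1.17 ± 0.30 in Z18trunc (adjusted p = 0.00403) and by 1.19 ± 0.34 in Z18truncZnFmut (adjusted p = 0.0147). Without Z18truncZnFmut replicate 3 the last of these was -0.97 and no longer passed (adjusted p = 0.0802), and it was also lost without Clover replicate 2 and without Z18truncZnFmut replicate 1. With no filter on low counts the calls in Z18trunc and Z18truncZnFmut were lost (highest adjusted p of the alternatives 0.372 and 0.462). The locus lies outside annotated genes, and RNA that runs on past the end of TOP3A cannot be told apart from RNA that starts in the element.

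The MLT2B4 copy within SLCO4A1-AS2, a noncoding RNA gene opposite the anion transporter gene SLCO4A1, had 9, 9 and 10 counts in Clover and 4, 2 and 3 in Z18fl. It had 5, 1 and 9 counts with Z18trunc and 11, 8 and 3 with Z18truncZnFmut. On the log2 scale it fell by 2.42 ± 0.54 in Z18fl (SE, edgeR adjusted p = 0.00107) and by 1.68 ± 0.60 in Z18trunc (adjusted p = 0.0345). In both comparisons the locus passed the filter through the 3 Clover libraries alone, so it had to be lower with the construct, and its tests are given as a description. With no filter neither call was kept (in Z18fl -2.13, adjusted p = 0.0953). The Z18trunc call was lost in 8 of 10 alternative settings, among them DESeq2 and the loss of any 1 Clover library, and with reads on either strand counted the Z18fl value turned to 0.33. This locus lay below the 20 mean counts set for naming loci and is named because it was called.

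The sole MLT2 locus called higher was an MLT2A1 copy in an intron of MTAP, which encodes an enzyme of methionine salvage, and of the overlapping gene ENSG00000264545. It had 5, 5 and 3 counts in Clover and 21, 36 and 51 in Z18trunc. It had 10, 21 and 32 counts in Z18fl and 49, 19 and 15 in Z18truncZnFmut. In CPM the range was 0.170 to 0.300 in Clover and 0.883 to 2.15 in Z18trunc, and all ZC3H18 libraries lay above all Clover libraries. It rose by 2.22 ± 0.48 on the log2 scale in Z18trunc (SE, edgeR adjusted p = 0.0012) and was called in all 14 alternative settings, with adjusted p-values from 4.14e-06 to 0.0115. It passed the filter through the 3 Z18trunc libraries alone, so that with the filter it had to be higher there, and with no filter it was called too. The filter left it out of the comparisons of Z18fl and Z18truncZnFmut with Clover. Without Z18truncZnFmut replicate 3 it entered the latter and was higher by 2.26 (adjusted p = 0.00502). Its Clover counts were all under the minimum count of 10, so it entered through the Z18truncZnFmut libraries alone. It had to be higher there too, and this value is given as a description. Z18trunc against Z18fl gave 0.73 ± 0.35 (adjusted p = 0.216). Of its counts, 87.6% came from uniquely mapping reads, and intronic RNA of MTAP cannot be told apart from RNA of the element.

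A further 2 loci in introns were called lower in Z18trunc against Clover, on low counts, and both passed the filter through the 3 Clover libraries alone. The MLT2A1 copy at chr1:94166773-94167221 in ARHGAP29, which encodes a GTPase-activating protein, had 10, 10 and 8 counts in Clover and 4, 3 and 6 in Z18trunc. Its log2 fold change was -1.89 ± 0.55 (SE, edgeR adjusted p = 0.0108), and the call was lost without Clover replicate 1, without Clover replicate 2 and with no filter on low counts. In Z18fl it was at -1.16 ± 0.52 (adjusted p = 0.067). The MLT2B2 copy at chr22:47691635-47692076 in the long noncoding RNA gene EPIC1 had 10, 15 and 7 counts in Clover and 9, 8 and 5 in Z18trunc. Its log2 fold change was -1.36 ± 0.50 (adjusted p = 0.0396), and the call was lost in 6 of 8 alternative settings, DESeq2 among them. Neither passed the filter in the comparison of Z18trunc with Z18fl, so whether these differences were particular to Z18trunc was not tested.

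**Figure D5:**
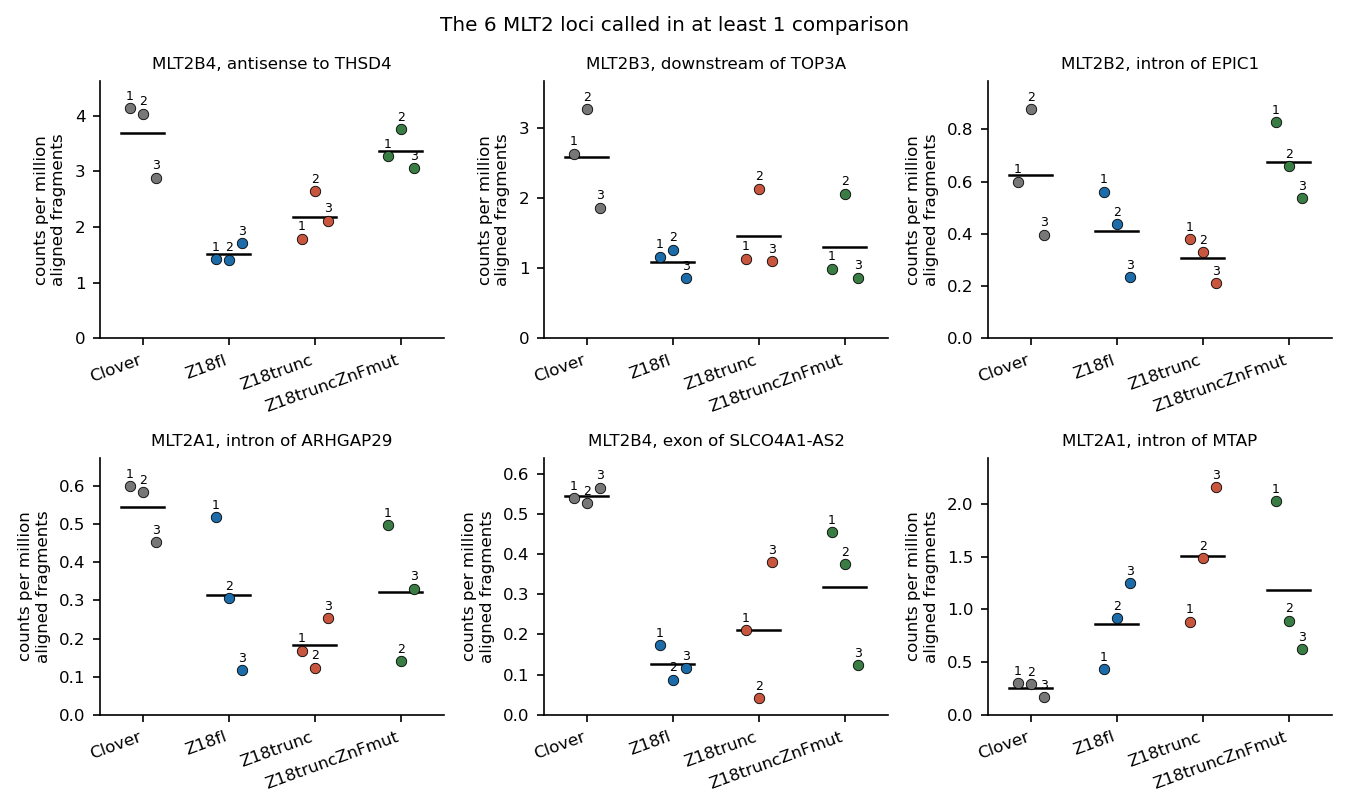
CPM at the 6 MLT2 loci called in at least 1 comparison, each on its own axis. Points are libraries with their replicate numbers and bars the mean of 3. At the copy antisense to THSD4 the Z18fl and Z18trunc libraries lie below those of Clover, and at the copy in MTAP all ZC3H18 libraries lie above them.

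The other MLT2 loci with the highest CPM over the 12 libraries lay in transcribed regions of genes and did not pass the test in any comparison. The highest was the MLT2B3 copy at chr8:23190684-23191219, wholly within exon sequence of TNFRSF10A, which encodes a death receptor for TRAIL. It had 73, 42 and 63 counts in Clover, 133, 119 and 102 in Z18fl, 107, 87 and 86 with Z18trunc, and 92, 65 and 55 with Z18truncZnFmut. Its log2 fold change in Z18fl against Clover was 0.16 ± 0.22 (SE, edgeR adjusted p = 0.546), and its CPM, 3.97 to 5.74 in Z18fl and 2.46 to 4.38 in Clover, overlapped.

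The MLT2A2 copy at chr17:81900926-81901457 lay for 94.0% of its length in exon sequence of PCYT2, which encodes an enzyme of phosphatidylethanolamine synthesis. It had 21, 35 and 28 counts in Clover, 44, 56 and 61 in Z18fl, 28, 51 and 33 with Z18trunc, and 37, 35 and 33 with Z18truncZnFmut. Its log2 fold change was 0.09 ± 0.26 in Z18fl against Clover (edgeR adjusted p = 0.791). The MLT2B3 copy at chr7:53811597-53812122, in exon sequence of the noncoding RNA gene LINC01446, had 20 to 47 counts in Clover and 48 to 54 in Z18fl (log2 fold change -0.22 ± 0.28, adjusted p = 0.533). The MLT2A2 copy at chr16:16612066-16612619 lay mostly in an intron of the noncoding gene ENSG00000260126, with 15 to 22 counts in Clover and 29 to 33 in Z18trunc (-0.13 ± 0.31, adjusted p = 0.778). At each of these 4 loci the CPM of Z18fl overlapped with that of Clover.

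Further properties of the bound MLT2 RNA were compared between the groups. Weighted by counts, the AT content of MLT2 loci was 53.4% ± 0.245 in Clover, 53.7% ± 0.0605 in Z18fl and 53.9% ± 0.314 in Z18trunc (SD, n = 3). Z18truncZnFmut had 54.2% ± 1.09, or 53.6% without replicate 3. The differences from Clover for Z18fl and Z18trunc, 0.39 and 0.56 percentage points, had no overlap (exact permutation p = 0.1, adjusted 0.286), but with reads on either strand they were 0.0856 and 0.207 points and overlapped (exact permutation p = 0.8 and 0.4). The log2 ratio of the younger MLT2A1 and MLT2A2 to the older subfamilies was -1.19 ± 0.05 in Clover, -1.07 ± 0.02 in Z18fl, -1.12 ± 0.01 with Z18trunc and -1.23 ± 0.21 with Z18truncZnFmut (-1.11 without replicate 3). Here, too, Z18fl and Z18trunc lay above Clover without overlap (exact permutation p = 0.1 for each, adjusted 0.286), while with reads on either strand Z18fl overlapped (exact permutation p = 0.2). The share of MLT2 counts on the element strand was 36.7% ± 0.820 in Clover and 34.4% ± 0.326 in Z18fl, without overlap (exact permutation p = 0.1, adjusted 0.286). It overlapped with Clover in Z18trunc (35.3% ± 1.68) and Z18truncZnFmut (38.1% ± 5.09, or 35.2% without replicate 3). Uniquely mapping reads gave 69.1% ± 4.26 of MLT2 counts in Clover and 76.0% ± 0.773 in Z18fl, with no overlap (exact permutation p = 0.1, adjusted 0.286). With uniquely mapping reads alone, 3 MLT2 subfamilies were called lower in Z18fl and 2 in Z18trunc. The share of all subfamilies called with those reads is not given here.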

How the data were processed

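Anti-V5 PAR-CLIP libraries of 4 constructs, 3 each, were followed at annotated repeat elements. According to the methods and the submitters' processing notes, the authors trimmed reads (cutadapt 4.6), mapped them to hg38 and counted them per element and strand with SQuIRE, whose version is not given in the sources used here. In the deposited tables the count of uniquely mapping reads and the number of aligned fragments are whole-number counts. The authors' total is an expected count, unique reads plus an estimated share of multimapping reads. The deposited score column is a percent that SQuIRE gives for each total. The FPKM columns were not used.

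Sense-strand expected counts were rounded to integers. For elements of 6 classes edgeR 4.0.16 (R 4.3.3) gave quasi-likelihood tests on the 6 libraries of each of 5 comparisons, after TMM scaling and filterByExpr (minimum count 10, minimum total 15). Sums per subfamily were tested likewise. Features with a Benjamini-Hochberg adjusted p under 0.05 were called. CPM is counts per 1000000 aligned fragments. The 12 measures per library gave 60 exact permutation tests, all two-sided. The tests were tested on simulated data.

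Gene context came from GENCODE 44, with exon meaning at least 50% of the element in exons on its own strand, intron any other place within a gene on that strand, and the rest antisense to a gene or between genes. Sequences were read from hg38. The sequences of some called loci are not reported here. Python 3.11.15, numpy 2.4.6, pandas 2.3.3 and matplotlib 3.10.9 made the tables and figures.

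Loci to be named were the 6 with the highest CPM over the 12 libraries and, against Clover, the 3 largest rises and 2 largest falls among called loci without overlap and with at least 20 mean counts, or 1 of each in the other 2 comparisons. All other called MLT2 loci were named as well, after their values were seen. The members and lists were chosen with earlier results of these data known. As alternatives, DESeq2 1.42.0 (own size factors), scaling by aligned fragments, no filter, both strands counted, unique reads alone, all repeat classes, 1 fit over the 12 libraries, a replicate block and each library left out in turn were run. Leaving out the top locus of each subfamily was added after seeing the data.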

Additional observations from a re-analysis of the deposited data

Results flagged for a closer look

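Reads antisense to MLT2 entered the tests only where either strand was counted and in the share of MLT2 counts on the element strand. They were more numerous than reads on the strand of the element in every library. Relative to aligned fragments they were higher in every ZC3H18 library than in every Clover library. Antisense MLT2 CPM was 194.7 ± 15.8 (SD, n = 3) in Clover, 255.8 ± 7.55 in Z18fl, 266.9 ± 23.6 with Z18trunc and 345.9 ± 165 with Z18truncZnFmut (251 without replicate 3). By library it was 213, 185 and 186 in Clover, 260, 247 and 260 in Z18fl, 250, 257 and 294 with Z18trunc, and 251, 250 and 536 with Z18truncZnFmut. Exons of genes on the opposite strand held 28.7% ± 3.24 of these counts in Clover and 20.4% ± 0.538 in Z18fl. The difference was not tested.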

How the results depend on the processing

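At most 133 counts at any MLT2 locus in a library limit the tests of single loci. Under the alternatives, 230 counts of calls stayed within 1.5 times the main count and 60 did not. Of 520 single values per library 35 changed sign, 8 of them in a comparison without overlap under either setting. Of 540 values at named loci 24 lost the call and 38 changed sign, 1 of these a call. Of 892 subfamily values 30 lost the call, 9 gained it and 118 changed sign, 10 of these called under either setting. The cause was not tested for any of these changes. Scaling by aligned fragments changed the sign of 9 of 12 subfamilies in Z18fl, 8 in Z18trunc and 5 in Z18truncZnFmut against Clover. Among those called under either scaling it turned, in Z18fl against Clover, MLT2A1 (0.46), MLT2A2 (0.25), MLT2B1 (0.040), MLT2B2 (0.12), MLT2B3 (0.16) and MLT2C1 (0.45), and in Z18trunc against Clover MLT2B1 (0.41) and MLT2B4 (0.092), all log2 fold changes. It gave 4 of 12 subfamilies higher and 1 lower in Z18fl, beside 54.1% and 4.24% of all 919. In Z18trunc it gave 5 higher and 0 lower, beside 45.1% and 0.974% of all 924. It gave 2 of 28 loci higher in Z18fl, beside 38.3% of all 12886. In Z18trunc 2 of 27 loci were higher and 2 lower, beside 32.0% and 3.69% of all 13373. In Z18truncZnFmut 1 of 26 loci was higher, beside 17.7% of all 11354. With reads on either strand MLT2A2 was at 0.051, MLT2D at -0.22 (called lower, adjusted p = 0.0082) and MLT2B4_chr20_62648977, the copy in SLCO4A1-AS2, at 0.33 in Z18fl against Clover. The log2 ratio of MLT2 to MLT1 was then 0.067 in Z18trunc against Clover and that to other ERVL 0.020 in Z18fl against Clover. The ratio of MLT2A to older MLT2 was 0.071 in Z18truncZnFmut against Clover and 0.0036 in Z18trunc against Z18fl. The intron share was 1.501 points higher in Z18truncZnFmut than in Clover and 0.0603 points higher in Z18trunc than in Z18fl. That setting called 7 loci higher and 13 lower in Z18fl, with 2 subfamilies lower. It called 7 loci higher and 0 subfamilies lower in Z18trunc, 2 loci lower in Z18truncZnFmut, and 1 locus higher and 1 lower in Z18trunc against Z18fl. The share of all features called is not given for this setting, so its counts show only how far the MLT2 calls moved. The same holds below for no filter, unique reads, the single fit, the replicate block, the top loci and most libraries left out. DESeq2 called 3 subfamilies lower in Z18fl and 3 loci lower in Z18trunc. With no filter there was 1 locus higher in Z18fl, 3 subfamilies lower in Z18fl, 1 locus lower in Z18trunc, 1 locus higher and 0 lower in Z18truncZnFmut, and 1 locus lower in Z18trunc against Z18fl. Uniquely mapping reads alone gave 3 subfamilies lower in Z18fl and, in Z18trunc, 2 subfamilies and 2 loci lower. All 12 libraries in a single fit gave 2 loci higher, 5 loci lower and 1 subfamily lower in Z18fl, 2 loci higher and 8 lower in Z18trunc, and 1 higher and 2 lower in Z18truncZnFmut. The replicate block gave 3 subfamilies lower in Z18fl, losing MLT2A2 and MLT2B2 (adjusted p = 0.0586 and 0.0556), and 3 loci lower in Z18trunc, and moved no other count by over 1.5 times. Replicate numbers were taken as names only: deviations of same-numbered libraries of different groups correlated at -0.07 to 0.08 over loci and at -0.194 to 0.606 over subfamilies (18 pairs, medians -0.0044 and -0.0379), beside -0.533 to 0.259 over subfamilies for 36 pairs of unlike number. Of 36 choices of the best match of a library in another group, its own number was chosen in 12 over loci and 7 over subfamilies. Without the top locus of each subfamily, chosen after seeing the data, 1 subfamily was higher in Z18fl and 0 were lower in Z18trunc. With each library left out in turn, Z18fl had 0 to 1 loci higher (1 without Clover replicate 1 or 2 or Z18fl replicate 1), 2 to 6 loci lower (5 without Clover replicate 1 or 2, 6 without Clover replicate 3) and 2 to 5 subfamilies lower (2 without Clover replicate 1, 3 without Z18fl replicate 1 or 3). Z18trunc had 1 to 2 loci higher (2 without Clover replicate 3), 2 to 5 loci lower (2 without Clover replicate 1 or without any Z18trunc library, 3 without Clover replicate 2) and 0 to 1 subfamilies lower (0 without Clover replicate 3). Z18truncZnFmut had 0 to 1 loci higher (1 without Clover replicate 1 or 2 or Z18truncZnFmut replicate 3) and 0 to 1 lower (0 without Clover replicate 2, Z18truncZnFmut replicate 1 or Z18truncZnFmut replicate 3). The intron share of Z18truncZnFmut against Clover ran from -2.91 to 4.27 points and the share of the top 10 loci in Z18truncZnFmut against Z18trunc from -3.36 to 2.09 points, turning without Z18truncZnFmut replicate 3.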

Other observations

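Of the 8 MLT2 loci with the highest antisense CPM, 6 lie mostly opposite exons of genes, where antisense reads cannot be told apart from the RNA of those genes. Among them is an MLT2B3 copy opposite exons of CD59 (chr11:33705476-33705797), a gene for an inhibitor of complement. It had 138, 127 and 147 antisense counts in Clover and 75, 78 and 102 in Z18fl. It had 121, 131 and 101 counts with Z18trunc, and with Z18truncZnFmut 213, 135 and 166. Z18fl was the lowest group there, although its libraries had more aligned fragments than those of Clover. The widest difference among the 8 loci was at an MLT2B4 copy at chr22:18105760-18107412, opposite an intron of ENSG00000288683, with 34, 29 and 33 antisense counts in Clover, 165, 136 and 175 in Z18fl, 115, 85 and 102 for Z18trunc, and 79, 52 and 58 for Z18truncZnFmut. All ZC3H18 libraries lay above all Clover libraries at this copy. An MLT2D copy opposite an exon of MTRF1L (chr6:152988570-152988883), which encodes a mitochondrial release factor, had 75, 67 and 116 counts in Clover and 49, 67 and 63 in Z18fl. These values were chosen after they were seen and were not tested.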
